A study of Mus musculus with 24 samples.

Results

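Lysosomal enzymes and membrane proteins were followed through 24 RNA-seq libraries of a mouse acute myeloid leukaemia. The 40 genes were chosen by symbol from the 23361 rows of the expression table: 7 cysteine cathepsins and legumain, 3 other proteases, 7 membrane proteins, 11 genes of lipid handling, 6 enzymes of sugar chains, 5 enzymes of glycosaminoglycans, and the transcription factor gene Tfeb. All 40 symbols were found, and all 40 passed the filter on low values (1 FPKM or more in at least 4 libraries, met by 11599 rows). FPKM are fragment counts scaled to transcript length and library size, so levels can be set side by side between genes.

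The cells were leukaemia cells harvested from the spleen of (FVB/n X C57/BL/6J) F1 mice with the genotype NRASG12V/Mll-AF9, which all 5 groups share; Mll-AF9 is a fusion oncogene of acute leukaemia and NRASG12V an activated RAS allele. One group was unsorted (5 libraries). The others were sorted by surface markers: MacHigh cells (5 libraries), with high Mac-1, the integrin of mature myeloid cells, and 3 groups with low Mac-1, MacLowKit-Sca1- (5), MacLowKit+Sca1- (5) and MacLowKit+Sca1+ (4), split by the receptor Kit and by Sca-1, a surface protein of stem and progenitor cells. The low Mac-1 groups are called Kit-Sca1-, Kit+Sca1- and Kit+Sca1+ here. The title of the series names a population enriched for leukaemia stem cells, and the comparisons ask how the sorted groups differ in expression. What drives the NRASG12V allele, the age of the mice and the number of animals behind a library are not given in the sources used here. No source used here ties replicates to different mice, so p-values measure only the spread between these libraries, which may be technical.

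Lysosomes are acid compartments in which proteins, lipids, sugar chains and glycosaminoglycans are broken down. Most soluble lysosomal enzymes are tagged with mannose 6-phosphate in the Golgi and delivered by receptors, the V-ATPase pumps protons into the lumen, and heavily glycosylated proteins such as LAMP1 and LAMP2 line the membrane. Macrophages are rich in lysosomes because they digest what they engulf, and TFEB is a transcription factor that raises many lysosomal genes when the kinase complex mTORC1 is inactive.

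Summed FPKM per library ranged from 445970 to 644381, and 10177 to 11124 rows reached 1 FPKM. Only FPKM were deposited in the table used here, so the number of reads behind a value is unknown. Ctsa, Ctsb, Ctsz, Ppt1, Asah1, Glb1, Hexa, Idua, Npc1 and Sgsh overlap another protein-coding gene in RefSeq, and no source used here says whether strand was used in counting, so reads of such neighbours may be mixed. Leukocyte and myeloid genes (7, among them Itgam, Ptprc and Cebpa), none of them specific to leukaemia, were present in every group. Their summed levels were 1882 to 2331 FPKM in MacHigh and 587 to 871 FPKM in Kit+Sca1+. Red pulp macrophage markers (12 genes, such as Vcam1 and C1qa) summed to 840.3 to 2130.4 FPKM in Kit+Sca1+ and 664 to 1179.6 FPKM in MacHigh. They summed to 82.2 to 173 FPKM in Kit-Sca1- and 89.2 to 134 FPKM in Kit+Sca1-. Against MacHigh, 7 of the 12 were called higher in Kit+Sca1+ and 2 lower (Emr1 and Hmox1). In Kit+Sca1- 11 were lower than in MacHigh and 1 was higher (Slc40a1). Dendritic cell markers (9 genes) summed to 385 to 737 FPKM in Kit+Sca1+ and 126 to 222 FPKM in MacHigh. Monocyte markers (8 genes) summed to 1739.6 to 2095 FPKM in MacHigh and 356 to 778 FPKM in Kit+Sca1+. NK cell markers (5 genes) summed to 265 to 511 FPKM in Kit+Sca1-, 101 to 281 FPKM in Kit+Sca1+, 51.5 to 193 FPKM in Kit-Sca1- and 32.2 to 57.2 FPKM in MacHigh; Nkg7 alone held 246.6 to 498 FPKM in Kit+Sca1-, where the 4 others were lower than in Kit-Sca1-. T cell markers (5 of 6 genes in the table) and B cell markers (5 genes) summed to at most 44.3 and 30.4 FPKM in any library. Erythroid markers (5 genes) summed to 259 to 1534 FPKM in unsorted cells and to at most 89.95 FPKM in sorted ones. The part of other cell types in the levels below was not tested. In bulk samples, fewer cells of a type and less RNA per cell cannot be told apart.

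Across the sorted groups most lysosomal genes were highest in MacHigh and lowest in Kit+Sca1-. MacHigh had the highest group mean for 28 of the 40 genes, and in 14 of these its libraries did not overlap with those of any other sorted group, which held for 7.13% of all 11562 rows with estimates in every sorted group. Kit+Sca1- had the lowest mean for 25 genes, 10 of them without overlap, beside 7.2% of all rows. Kit+Sca1+ was highest for 7 genes and lowest for 4. In these counts Psap was ranked among the low Mac-1 groups only. Of the 39 other genes, 1 was highest in Kit+Sca1+ without overlap, beside 5.00% of all rows. In Kit+Sca1- 2 of the 39 were highest without overlap, beside 7.71% of all rows. Without Psap, for which MacHigh had no usable estimate, the 39 other genes made up 1.16% ± 0.171 (SD, n = 5) of the summed FPKM of MacHigh libraries and 0.922% ± 0.0824 (SD, n = 4) of those of Kit+Sca1+. The share was 0.795% ± 0.0427 (SD, n = 5) in unsorted cells, 0.673% ± 0.126 (SD, n = 5) in Kit-Sca1- and 0.576% ± 0.0511 (SD, n = 5) in Kit+Sca1-. Failed estimates of other abundant genes count as 0.001 FPKM in the summed FPKM, most of them in Kit+Sca1-, which makes the shares less comparable between groups.

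**Figure D1:**
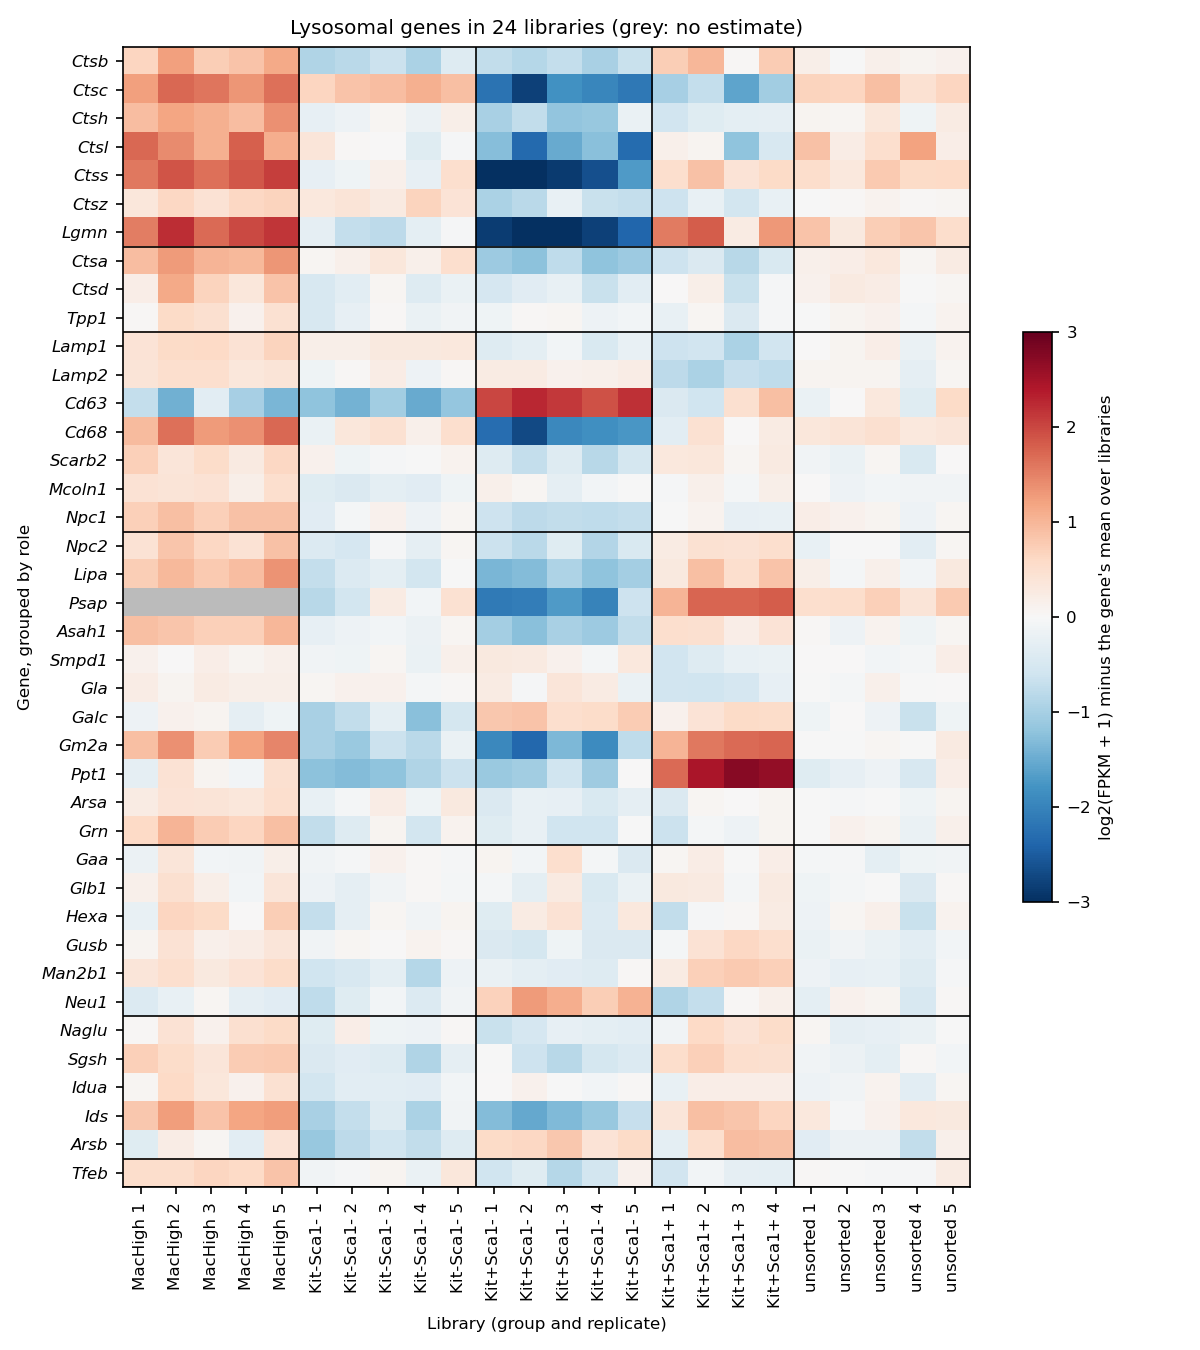
Level of the 40 lysosomal genes (rows, grouped by role) in the 24 libraries (columns), as log2(FPKM + 1) minus the gene's mean over libraries; red is above and blue below that mean, and grey marks the Psap values of MacHigh, listed at 0.001 FPKM. MacHigh is red in most rows and Kit+Sca1- blue in most, while Cd63, Neu1 and Galc are red in Kit+Sca1-, and Ppt1 and Psap in Kit+Sca1+.

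Differences were tested gene by gene on log2(FPKM + 1), a scale that understates the change of low genes, and called at an adjusted p under 0.05 over all rows. Of the 39 genes testable against MacHigh, 31 were lower in Kit-Sca1- and none was higher (0 also at an unadjusted limma p under 0.05), where 26.2% of all rows tested were called lower and 24.5% higher. Another 31 calls were lower in Kit+Sca1- and 4 higher (Cd63, Galc, Neu1 and Arsb), against 30.1% lower and 32.6% higher among all rows. In Kit+Sca1+, 19 were lower than in MacHigh and 3 higher (Ppt1, Cd63 and Galc), against 22.4% and 23.6%. The median log2 difference of the genes from MacHigh was -0.70 for Kit-Sca1-, -1.05 for Kit+Sca1- and -0.44 for Kit+Sca1+, beside medians of all rows of -0.02, 0.03 and 0.03. The 3 higher calls in Kit+Sca1+ were 7 (beside 19 lower) under quantile normalization and 6 without Kit+Sca1+ replicate 1, with Gusb, Man2b1 and Arsb added in both cases and Gm2a in the first. In unsorted cells 30 were lower than in MacHigh and 1 was higher (Cd63), against 21.3% and 18.2% of all rows; the 30 became 19 with libraries rescaled to the same FPKM sum.

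Among the 3 low Mac-1 groups no order of the means held for most genes. The most frequent, Kit+Sca1+ above Kit-Sca1- above Kit+Sca1-, was found in 16 of the 40; in 9, Ctsc and Cd68 among them, Kit-Sca1- was first and Kit+Sca1- last. Against Kit-Sca1-, 21 of the 40 genes were lower in Kit+Sca1- and 8 were higher, where 26% of all rows were lower and 24% higher. The 8 became 5 without Kit-Sca1- replicate 1, and the split was 16 lower and 11 higher with rescaled libraries. In Kit+Sca1+, 18 were higher than in Kit-Sca1- and 7 lower, against 21.8% and 23.3% of all rows, and 22 were higher than in Kit+Sca1- and 6 lower, against 26.6% and 28.5%. The medians were -0.33, 0.26 and 0.48. An F test among the 4 sorted groups called 37 of 39 genes, where 83.1% of all rows were called; Hexa and Gaa were not.

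**Figure D2:**
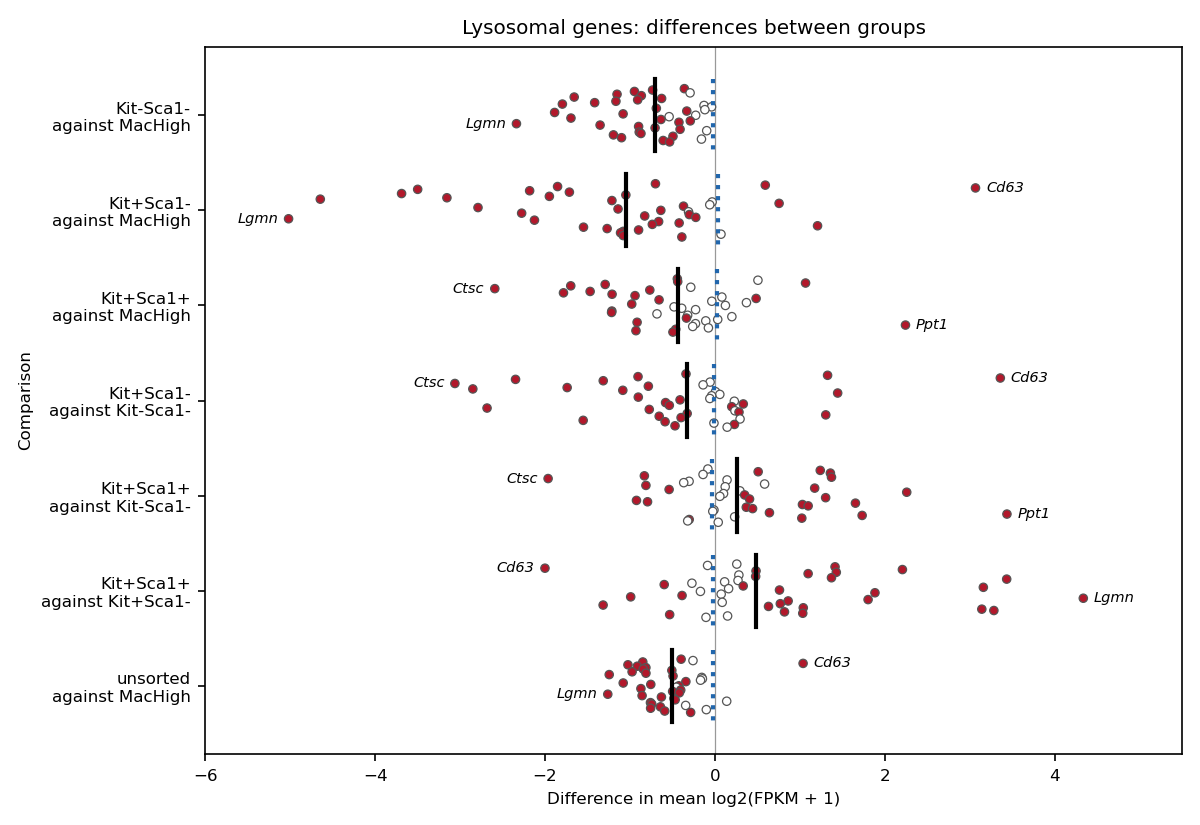
Difference in mean log2(FPKM + 1) of each lysosomal gene (points) in 7 comparisons; filled points have an adjusted p under 0.05, the black bar is the median of the genes and the dotted blue bar the median of all rows tested. The points lie mostly left of 0 in the comparisons with MacHigh and mostly right of 0 where Kit+Sca1+ is set against the other low Mac-1 groups.

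Tfeb itself was highest in MacHigh, where its libraries held 33, 33.2, 36.2, 35 and 41.6 FPKM. Kit-Sca1- held 21.1, 22.3, 24.1, 19.7 and 29.2 FPKM. Kit+Sca1- held 14.7, 17.5, 12, 15.1 and 25.1 FPKM and Kit+Sca1+ 14.9, 21.5, 18.8 and 18.4 FPKM. Every MacHigh library was above every library of the other groups, and the 3 low Mac-1 groups overlapped. Tfeb fell by 0.61 on the log2 scale in Kit-Sca1- (SE 0.138, adjusted p = 0.000877), by 1.08 in Kit+Sca1- (SE 0.138, adjusted p = 4.95e-07) and by 0.93 in Kit+Sca1+ (SE 0.147, adjusted p = 1.91e-05). Between Kit+Sca1+ and Kit-Sca1- its adjusted p was 0.0804, and 0.00694 in a fit blocked on the prefix of the sample names, which recurs across groups and along which these libraries deviated together.

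The promoters of lysosomal genes are known for short palindromes of the E-box type to which TFEB and its relatives bind. Promoter sequences from RefSeq (GRCm38.p6, 250 bases before to 50 after a start) matched 36 of the 40 genes. The letters CACGTG, which read the same on both strands, were found in 12 of the 36 (33.3%) and in 8.09% of 27025 genes with a promoter in the same table. The longer TCACGTGA, which contains CACGTG, was found in 4 (11.1%; Ctsa, Ctsd, Gla and Mcoln1) and in 1.12% of all genes, and its extension by G before and C after in none of the 36 and in 0.370% of all genes. For each of the 12 genes, 1 stretch of 30 bases is shown to let the flanks be compared, on the strand of the gene, with CACGTG or, where present, TCACGTGA in capitals.
Arsa (chr15:89477423-89477452, minus strand): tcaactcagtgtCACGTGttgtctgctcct
Ctsa (chr2:164833749-164833778, plus strand): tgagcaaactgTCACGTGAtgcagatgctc
Ctsd (chr7:142387908-142387937, minus strand): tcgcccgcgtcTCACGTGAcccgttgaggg
Ctsl (chr13:64370739-64370768, minus strand): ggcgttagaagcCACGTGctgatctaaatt
Gaa (chr11:119267811-119267840, plus strand): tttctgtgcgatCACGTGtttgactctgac
Gla (chrX:134601182-134601211, minus strand): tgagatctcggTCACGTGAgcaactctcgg
Glb1 (chr9:114401018-114401047, plus strand): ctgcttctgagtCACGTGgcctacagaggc
Lamp1 (chr8:13159134-13159163, plus strand): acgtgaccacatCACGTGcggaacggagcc
Lgmn (chr12:102439124-102439153, minus strand): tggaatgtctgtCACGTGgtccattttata
Mcoln1 (chr8:3500462-3500491, plus strand): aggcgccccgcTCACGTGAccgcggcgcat
Naglu (chr11:101070009-101070038, plus strand): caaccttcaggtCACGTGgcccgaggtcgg
Sgsh (chr11:119355522-119355551, minus strand): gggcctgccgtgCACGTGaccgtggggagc
The motif began between 12 bases (Ctsa) and 236 bases (Ctsl) before the start used in these stretches. For Ctsa, Ctsl and Lgmn the stretch lay within the RefSeq span of the gene, so the start used is not the gene's outer end. A match describes the letters and is not a binding site. The promoter of Lamp1 held 4 copies, more than any other of the 12, and is shown over the 250 bases before the start with each copy in capitals.
Lamp1 (chr8:13158911-13159160, plus strand): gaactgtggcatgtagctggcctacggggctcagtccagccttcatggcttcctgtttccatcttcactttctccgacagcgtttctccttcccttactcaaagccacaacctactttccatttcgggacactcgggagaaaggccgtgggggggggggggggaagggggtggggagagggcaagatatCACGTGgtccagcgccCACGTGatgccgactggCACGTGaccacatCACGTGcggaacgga
All 4 copies lay together next to the start. The 12 genes with CACGTG had a median log2 difference from MacHigh of -0.78 in Kit+Sca1- and -0.55 in Kit+Sca1+. Of the 24 without it, 23 could be tested against MacHigh (all but Psap), with medians of -0.90 and -0.32. In Kit-Sca1- the medians were -0.56 and -0.64. These medians are descriptions with no test.

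Cysteine cathepsins and legumain cut proteins in the acid lumen, and in antigen-presenting cells they trim the invariant chain and antigens for MHC class II. In Kit+Sca1- all 7 fell below MacHigh, with a median log2 difference of -3.16. In Kit-Sca1- 6 of 7 were lower, and in Kit+Sca1+ 5 of 7. Among all rows 30.1%, 26.2% and 22.4% were lower in these comparisons. Ctsc encodes dipeptidyl peptidase I, which activates the serine proteases of myeloid granules, and differed most by the F test. It stood at 261, 369, 341, 281 and 353 FPKM in MacHigh and at 176, 202, 212, 232 and 209 FPKM in Kit-Sca1-. In Kit+Sca1+ it stood at 55.7, 67.1, 36.5 and 53.2 FPKM. In Kit+Sca1- the values were 23.1, 15.2, 31, 27.9 and 24.5 FPKM. No pair of sorted groups overlapped, which held also for Lamp1 and Asah1 but for none of the other 36 genes with estimates in all groups; 0.977% of all rows had such a pattern. The log2 difference from MacHigh was -0.63 ± 0.16 (SE; adjusted p = 0.00236) in Kit-Sca1-, -2.59 ± 0.169 (SE; adjusted p = 4.65e-11) in Kit+Sca1+ and -3.69 ± 0.16 (SE; adjusted p = 6.06e-14) in Kit+Sca1-.

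Legumain (Lgmn), the asparaginyl endopeptidase, had the largest log2 difference from MacHigh of the 39 genes. Its values were 118, 191, 132, 161 and 182 FPKM in MacHigh and 121, 144, 47.9 and 101 FPKM in Kit+Sca1+. Kit-Sca1- held 33.1, 24.2, 22.9, 32.6 and 39.1 FPKM, and Kit+Sca1- held 4.77, 1.41, 2.82, 4.99 and 6.94 FPKM. MacHigh and Kit+Sca1+ overlapped, and both other groups stood apart below them. Against MacHigh it fell by 5.02 on the log2 scale in Kit+Sca1- (SE 0.277, adjusted p = 1.08e-12) and by 2.34 in Kit-Sca1- (SE 0.277, adjusted p = 7.17e-07). In Kit+Sca1+ the difference was -0.68 ± 0.294 (SE; adjusted p = 0.0626), and the adjusted p was 0.0283 without Kit+Sca1+ replicate 2 and 0.0471 without MacHigh replicate 1. Leaving out Kit+Sca1- replicate 2 or 5, which changes only the pooled spread, gave 0.0327 and 0.0477.

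Cathepsin S (Ctss), the main invariant chain protease of macrophages and dendritic cells, followed the same order. MacHigh held 659.9, 817, 692, 801 and 929.8 FPKM and Kit+Sca1+ 315, 407, 293 and 331 FPKM. Kit-Sca1- held 186, 202, 245, 187 and 315 FPKM and Kit+Sca1- 26.9, 12.5, 29.5, 35 and 67.9 FPKM. MacHigh lay above and Kit+Sca1- below all others, while Kit+Sca1+ and Kit-Sca1- overlapped. The log2 difference from MacHigh was -4.65 ± 0.26 (SE; adjusted p = 1.25e-12) in Kit+Sca1- and -1.21 ± 0.276 (SE; adjusted p = 0.00104) in Kit+Sca1+. Cathepsin B (Ctsb), a broad endopeptidase, was low in Kit-Sca1- (105 to 156 FPKM) and in Kit+Sca1- (103 to 129 FPKM), with a difference of -0.06 ± 0.146 (SE; adjusted p = 0.776). In Kit+Sca1+ it held 209 to 411 FPKM, overlapping with MacHigh at 319 to 481 FPKM, and was higher than in Kit+Sca1- by 1.43 ± 0.155 (SE; adjusted p = 7.07e-08) on the log2 scale.

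Cathepsin Z (Ctsz), a carboxypeptidase, was the one gene of its class not called in Kit-Sca1- against MacHigh, at 393 to 518 beside 413 to 518 FPKM (-0.13 ± 0.115 (SE; adjusted p = 0.369)). It was lower in Kit+Sca1- (169 to 280.1 FPKM) and Kit+Sca1+ (212 to 282 FPKM), which overlapped; their adjusted p was 0.0636, and 0.0122 with the prefix block. Cathepsin H (Ctsh), an aminopeptidase, ranged over 229 to 315 FPKM in MacHigh and 102 to 137 FPKM in Kit-Sca1-. It held 52.5 to 104 FPKM in Kit+Sca1- and 81.5 to 101 FPKM in Kit+Sca1+; between Kit+Sca1+ and Kit-Sca1- the adjusted p was 0.115, and 0.0135 with the block. Cathepsin L (Ctsl), an endopeptidase, fell from 33 to 55.7 FPKM in MacHigh to 2.22 to 5.82 FPKM in Kit+Sca1- (-3.16 ± 0.267 (SE; adjusted p = 7.81e-10)).

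**Figure D3:**
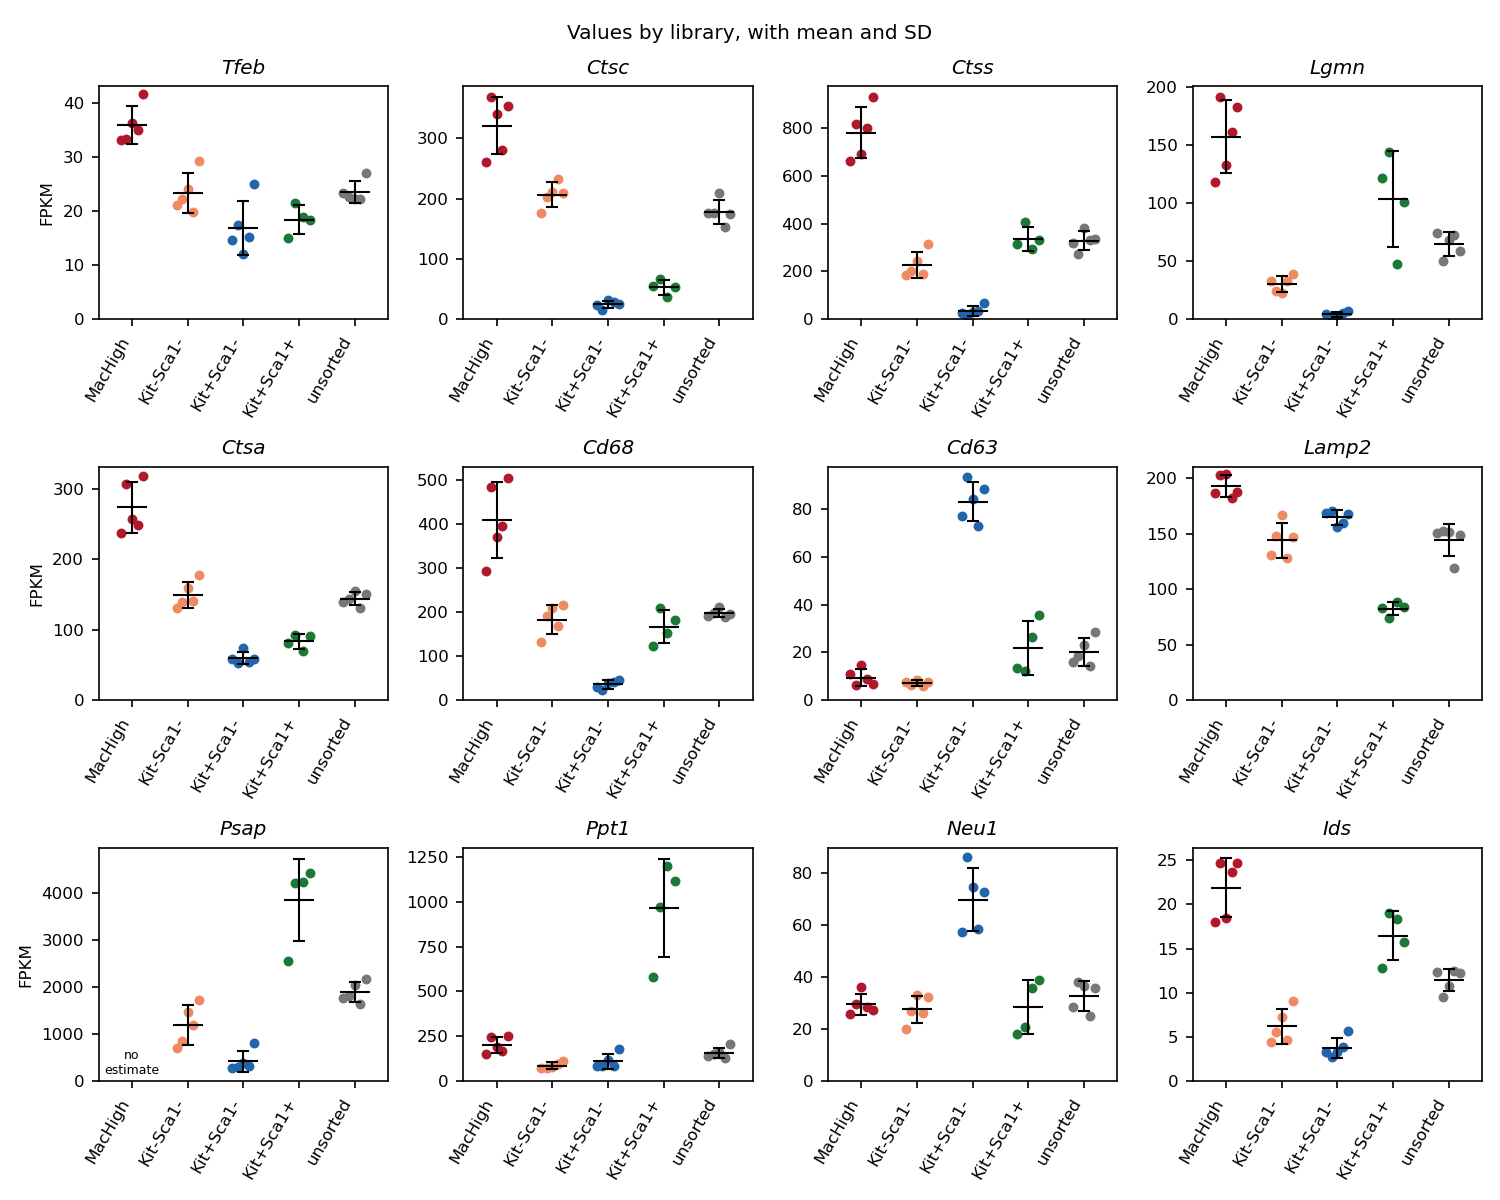
FPKM of 12 lysosomal genes in each library (points, linear axes from 0) by group, with the mean (bar) and SD (error bar) of the group. Ctsc, Ctss, Ctsa and Cd68 are highest in MacHigh and lowest in Kit+Sca1-, Cd63 and Neu1 are highest in Kit+Sca1-, and Ppt1 is highest in Kit+Sca1+; Psap has no estimate in MacHigh.

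All 3 other proteases were lower than MacHigh in each low Mac-1 group, where 22.4% to 30.1% of all rows were lower. Cathepsin A (Ctsa) is a carboxypeptidase that also protects the galactosidase and the sialidase of the lysosome in a complex. MacHigh libraries held 237, 307, 257, 249 and 318 FPKM and Kit-Sca1- libraries 131, 139, 159.6, 140.2 and 178 FPKM. Kit+Sca1+ held 81.4, 91.9, 69.6 and 91.5 FPKM and Kit+Sca1- 58.4, 52.9, 73.9, 53.8 and 58.7 FPKM. MacHigh and Kit-Sca1- each stood apart, and the other groups overlapped through replicate 3 of each. The log2 differences from MacHigh were -0.87 ± 0.107 (SE; adjusted p = 1.11e-06) in Kit-Sca1-, -1.70 ± 0.113 (SE; adjusted p = 6.04e-11) in Kit+Sca1+ and -2.18 ± 0.107 (SE; adjusted p = 2.14e-13) in Kit+Sca1-.

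Cathepsin D (Ctsd), the aspartic endopeptidase, was among the most abundant of the genes. It held 369.97, 703, 510.1, 407 and 575 FPKM in MacHigh. The low Mac-1 groups held 230.2, 255, 331, 245 and 277 FPKM (Kit-Sca1-), 226, 252, 275, 201 and 258 FPKM (Kit+Sca1-) and 323, 364, 202 and 311 FPKM (Kit+Sca1+). The lowest MacHigh library was above the highest of the others, and the low Mac-1 groups overlapped with no call among them. Its log2 difference from MacHigh was -1.05 ± 0.16 (SE; adjusted p = 5.79e-06) in Kit+Sca1-, -0.91 ± 0.16 (SE; adjusted p = 7.29e-05) in Kit-Sca1- and -0.77 ± 0.17 (SE; adjusted p = 0.000805) in Kit+Sca1+. Tripeptidyl peptidase 1 (Tpp1) spanned 30.1 to 44.2 FPKM in MacHigh and 20.8 to 31.0 FPKM over the low Mac-1 groups. Its difference in Kit+Sca1+ (-0.49 ± 0.116 (SE; adjusted p = 0.00135)) had an adjusted p of 0.0572 with rescaled libraries.

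The 7 membrane proteins split by gene. Cd68, the heavily glycosylated macrosialin used as a macrophage marker, held 293, 484, 371, 396 and 506 FPKM in MacHigh. Kit-Sca1- held 132, 191, 209, 169 and 215 FPKM and Kit+Sca1+ 123, 210.2, 154 and 181 FPKM. Kit+Sca1- held 30.3, 22.3, 39.1, 42.1 and 44.8 FPKM. MacHigh lay above and Kit+Sca1- below all other groups, and Kit-Sca1- and Kit+Sca1+ overlapped. The log2 difference from MacHigh was -3.50 ± 0.181 (SE; adjusted p = 4.32e-13) in Kit+Sca1- and -1.29 ± 0.192 (SE; adjusted p = 8.77e-06) in Kit+Sca1+. Npc1, which moves cholesterol out of the lysosome, held 26.8, 30.9, 26.9, 30.3 and 30.4 FPKM in MacHigh. It held 12.5, 15.2, 17.7, 14.2 and 16.8 FPKM in Kit-Sca1- and 15.9, 17.4, 13.2 and 13.5 FPKM in Kit+Sca1+, which overlapped. In Kit+Sca1- it held 10.1, 8.84, 9.17, 8.98 and 9.28 FPKM, below every other library, a log2 difference from MacHigh of -1.55 ± 0.0902 (SE; adjusted p = 2.09e-12).

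Both LAMP genes were lowest in Kit+Sca1+. Lamp1 held 449, 502, 514, 453 and 539 FPKM in MacHigh and 379, 379, 414, 413 and 421 FPKM in Kit-Sca1-. It held 257, 276, 316, 245 and 291 FPKM in Kit+Sca1- and 220.5, 225, 175 and 227 FPKM in Kit+Sca1+. The 4 groups followed each other without overlap, and Kit+Sca1+ differed from MacHigh by -1.21 ± 0.0964 (SE; adjusted p = 9.76e-10) and from Kit+Sca1- by -0.39 ± 0.0964 (SE; adjusted p = 0.00163). Lamp2, whose isoforms include the receptor of chaperone-mediated autophagy, held 83.3, 74, 88.6 and 84.3 FPKM in Kit+Sca1+. The other sorted groups held 183 to 204 (MacHigh), 128 to 167 (Kit-Sca1-) and 156 to 171 (Kit+Sca1-) FPKM, all above the highest Kit+Sca1+ library. Lamp2 in Kit+Sca1+ differed by -1.22 ± 0.0829 (SE; adjusted p = 8.55e-11) from MacHigh and by -0.99 ± 0.0829 (SE; adjusted p = 1.36e-09) from Kit+Sca1-. Gla and Smpd1 were the other genes lowest in Kit+Sca1+ without overlap, a pattern of 3.17% of all rows.

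Cd63, a tetraspanin of late endosomes, exosomes and secretory granules, ran the other way. Kit+Sca1- held 77.2, 93.3, 84.5, 72.8 and 88.4 FPKM. Kit+Sca1+ held 13.6, 12.1, 26.4 and 35.8 FPKM, MacHigh 10.9, 6.2, 14.7, 8.8 and 6.58 FPKM and Kit-Sca1- 7.54, 6.32, 8.59, 5.87 and 7.82 FPKM. Every Kit+Sca1- library was above every other library of the study, and in Kit+Sca1+ replicates 1 and 2 lay within the range of MacHigh and replicates 3 and 4 above it. The log2 difference from MacHigh was 3.07 ± 0.245 (SE; adjusted p = 3.23e-10) in Kit+Sca1- and 1.07 ± 0.26 (SE; adjusted p = 0.00185) in Kit+Sca1+; in unsorted cells (14.3 to 28.5 FPKM) it was 1.04 ± 0.245 (SE; adjusted p = 0.00221). Cd63 was the only one of the 40 genes called higher than in MacHigh in unsorted cells.

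The remaining membrane proteins changed less. Scarb2 (LIMP-2, the carrier of glucocerebrosidase) held 49.3 to 67.4 FPKM in MacHigh and 22.4 to 30.9 FPKM in Kit+Sca1- (-1.08 ± 0.106 (SE; adjusted p = 8.65e-09)). In Kit+Sca1+ it held 42.3 to 52.3 FPKM and in Kit-Sca1- 37.4 to 44.5 FPKM, with an adjusted p between them of 0.098, and 0.00174 with the prefix block. Mcoln1, the calcium channel TRPML1, held 20.4 to 25.9 FPKM in MacHigh and was lower in Kit-Sca1- at 13 to 16.2 FPKM (-0.70 ± 0.0814 (SE; adjusted p = 4.94e-07)). Its difference in Kit+Sca1- was -0.42 ± 0.0814 (SE; adjusted p = 0.000103), with an adjusted p of 0.417 when libraries were rescaled to the same FPKM sum.

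Of the 11 genes of lipid handling, 3 had their highest mean in Kit+Sca1+ (Ppt1, Gm2a and, among the low Mac-1 groups only, Psap), as did 3 of the 6 enzymes of sugar chains. Psap encodes prosaposin, cut into the saposins that present sphingolipids to their hydrolases. It was listed at 0.001 FPKM in all 5 MacHigh libraries, a failed estimate given its level elsewhere, and was left out of every comparison with MacHigh. Kit+Sca1+ held 2547, 4205, 4231 and 4428 FPKM and Kit-Sca1- 707, 859, 1481, 1189.98 and 1729.98 FPKM. Kit+Sca1- held 288, 298, 388, 314 and 810.3 FPKM, and unsorted cells 1773, 1804, 2047, 1649 and 2163 FPKM. Every Kit+Sca1+ library was above every other library with an estimate, and Kit-Sca1- and Kit+Sca1- overlapped through replicate 5 of Kit+Sca1-. Kit+Sca1+ was higher than Kit-Sca1- by 1.73 ± 0.293 (SE; adjusted p = 9.24e-05) and than Kit+Sca1- by 3.28 ± 0.293 (SE; adjusted p = 2.39e-08) on the log2 scale. Psap had the highest mean FPKM of the 40 genes in each group with an estimate.

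Ppt1, palmitoyl-protein thioesterase, which strips fatty acids from proteins, was the gene most raised in Kit+Sca1+ over MacHigh. Kit+Sca1+ held 583, 973, 1199.5 and 1116 FPKM and MacHigh 149, 244, 189, 170.1 and 249 FPKM. Kit-Sca1- held 75.9, 71.7, 76.7, 94.5 and 114 FPKM and Kit+Sca1- 81.7, 86.3, 117, 85 and 180.2 FPKM. Every Kit+Sca1+ library was above every library of the other groups, and the highest of those was a MacHigh library. The log2 difference was 2.24 ± 0.232 (SE; adjusted p = 6.17e-08) from MacHigh, 3.44 ± 0.232 (SE; adjusted p = 6.96e-11) from Kit-Sca1- and 3.14 ± 0.232 (SE; adjusted p = 2.22e-10) from Kit+Sca1-. Between Kit+Sca1- and Kit-Sca1- its adjusted p was 0.278, and 0.0463 with the prefix block; for unsorted cells against MacHigh these were 0.217 and 0.019.

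Gm2a, the activator protein that lifts GM2 ganglioside for hexosaminidase A, was high in both Kit+Sca1+ and MacHigh. It held 259.6, 383, 414 and 433 FPKM in Kit+Sca1+ and 238, 333, 217, 296 and 352 FPKM in MacHigh. Kit-Sca1- held 64.3, 58.2, 81.6, 72.7 and 111 FPKM and Kit+Sca1- 32.5, 24.2, 49.8, 34.1 and 75.5 FPKM. Kit+Sca1+ and MacHigh overlapped with a log2 difference of 0.37 ± 0.242 (SE; adjusted p = 0.219), and both lay above the other groups. Against Kit+Sca1-, Gm2a was higher in Kit+Sca1+ by 3.16 ± 0.242 (SE; adjusted p = 3.5e-10).

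Asah1, acid ceramidase, held 173, 165, 153, 152 and 186 FPKM in MacHigh and 131, 129, 106 and 122 FPKM in Kit+Sca1+. Kit-Sca1- held 77.6, 83.2, 87.5, 82 and 96.6 FPKM and Kit+Sca1- 44.7, 38.2, 46.4, 42.5 and 54.6 FPKM. The 4 groups did not overlap, and the log2 difference from MacHigh was -1.85 ± 0.0898 (SE; adjusted p = 1.95e-13) in Kit+Sca1- and -0.44 ± 0.0952 (SE; adjusted p = 0.00066) in Kit+Sca1+. Lipa, the acid lipase of cholesteryl esters and triglycerides, held 100.5, 117, 103, 114 and 153 FPKM in MacHigh and 73.1, 111, 84.5 and 108 FPKM in Kit+Sca1+. Kit-Sca1- held 35.6, 44.7, 48.5, 40.02 and 58.8 FPKM and Kit+Sca1- 22.4, 23.4, 30.5, 24.9 and 28.9 FPKM. MacHigh and Kit+Sca1+ overlapped, and Kit+Sca1- was lower than MacHigh by a log2 difference of -2.12 ± 0.14 (SE; adjusted p = 1.46e-11). Npc2, the soluble partner of NPC1, followed the same order (142 to 196 FPKM in MacHigh, 126 to 149.9 in Kit+Sca1+, 73.9 to 111 in Kit-Sca1- and 57.4 to 81.7 in Kit+Sca1-).

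Galc, galactosylceramidase, was higher in both Kit+ groups. It held 14.2 to 18.3 FPKM in Kit+Sca1- and 10.8 to 15 FPKM in Kit+Sca1+, beside 7.94 to 10.7 FPKM in MacHigh and 3.51 to 7.7 FPKM in Kit-Sca1-. The log2 difference from MacHigh was 0.76 ± 0.151 (SE; adjusted p = 0.000148) in Kit+Sca1- and 0.49 ± 0.16 (SE; adjusted p = 0.0163) in Kit+Sca1+, the latter with an adjusted p of 0.0513 without Kit+Sca1+ replicate 3. Between the Kit+ groups the adjusted p was 0.158, and 0.0143 with the prefix block. Gla, alpha-galactosidase A, held 5.1 to 6.79 FPKM in Kit+Sca1+ and 6.97 to 10.9 FPKM over the other sorted groups, a log2 difference from MacHigh of -0.66 ± 0.0988 (SE; adjusted p = 1.03e-05). Smpd1, acid sphingomyelinase, held 8.29 to 10.9 FPKM in Kit+Sca1+ and 12.8 to 14.9 FPKM in MacHigh (-0.46 ± 0.0937 (SE; adjusted p = 0.000338)). Without Kit+Sca1+ replicate 1, the adjusted p of Smpd1 against Kit-Sca1- went from 0.0113 to 0.0587; for Kit-Sca1- against MacHigh it was 0.14, and 0.0494 with the prefix block.

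Grn, which encodes progranulin, held 413 to 558 FPKM in MacHigh and 163 to 296 FPKM over the low Mac-1 groups, with no overlap. Its log2 difference from MacHigh lay between -1.14 and -0.98 in the 3 groups, all called. Arsa, arylsulfatase A, was lower in each low Mac-1 group, by 0.36 to 0.70 on the log2 scale. Between Kit+Sca1+ and Kit+Sca1- its adjusted p was 0.0502, and 0.0163 with the prefix block.

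The 6 enzymes of sugar chains varied least as a class. None was called in Kit+Sca1+ against MacHigh (0 also at an unadjusted limma p under 0.05), where 22.4% of all rows were lower and 23.6% higher. Gusb and Man2b1 were, however, called higher in this comparison under quantile normalization, and also without Kit+Sca1+ replicate 1. In Kit-Sca1- 2 of 6 were lower than in MacHigh (Man2b1 and Glb1), near the 26.2% of all rows. Man2b1, lysosomal alpha-mannosidase, held 199.95, 277, 291 and 276 FPKM in Kit+Sca1+ and 215, 238, 206, 222 and 246 FPKM in MacHigh. Kit+Sca1- held 147, 136, 132, 127 and 171 FPKM and Kit-Sca1- 111, 121, 136, 91.7 and 150.3 FPKM. The first pair of groups overlapped and lay above the second pair, which overlapped too. Man2b1 was higher in Kit+Sca1+ than in Kit-Sca1- by 1.10 ± 0.127 (SE; adjusted p = 2.61e-07); between Kit+Sca1- and Kit-Sca1- its adjusted p was 0.106, and 0.0114 with the prefix block.

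Neu1, the lysosomal sialidase, was raised in Kit+Sca1-. Its values were 57.2, 86.2, 74.7, 58.4 and 72.6 FPKM in Kit+Sca1- and 25.8, 29.5, 36.2, 28.6 and 27.2 FPKM in MacHigh. They were 20.2, 27, 33, 26.1 and 32.2 FPKM in Kit-Sca1- and 18.3, 20.9, 35.9 and 39.1 FPKM in Kit+Sca1+. Every Kit+Sca1- library was above every library of the other sorted groups, which overlapped with each other. Kit+Sca1- was higher by 1.21 ± 0.183 (SE; adjusted p = 5.07e-06) than MacHigh and by 1.31 ± 0.183 (SE; adjusted p = 3.77e-06) than Kit-Sca1- on the log2 scale. Neu1 and Ctsa, whose products share a complex, stood at opposite ends in Kit+Sca1-: Neu1 had its highest and Ctsa its lowest group mean there, and Glb1, beta-galactosidase of the same complex, differed from MacHigh by -0.37 ± 0.123 (SE; adjusted p = 0.0121).

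Hexa, the alpha subunit of hexosaminidase A, was not called in any comparison, and its libraries followed their sample name prefix. Those with prefix 11 held 98.7 to 142 FPKM in 4 groups and those with prefix N 104 to 166 FPKM in 3 groups, while prefix R held 173 to 276 FPKM in 5 groups. With the prefix as a block Hexa was lower in Kit-Sca1- than in MacHigh (adjusted p = 2.42e-07) and in unsorted cells (adjusted p = 2.13e-06). It was then also higher in Kit+Sca1- than in Kit-Sca1- (adjusted p = 0.000194) and lower in Kit+Sca1+ than in Kit+Sca1- (adjusted p = 0.00805). Gaa, acid alpha-glucosidase, had log2 differences between -0.15 and 0.12 in the 7 comparisons and no call in any. Gusb, beta-glucuronidase, was lower in Kit+Sca1- than in MacHigh (-0.64 ± 0.104 (SE; adjusted p = 1.42e-05)); in Kit-Sca1- its adjusted p was 0.0744, and 0.024 with the block. For Glb1 in Kit+Sca1+ against Kit-Sca1- these were 0.0701 and 0.012.

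The 5 enzymes that degrade glycosaminoglycans were all lower in Kit-Sca1- than in MacHigh, where 26.2% of all rows were lower. All 5 were higher in Kit+Sca1+ than in Kit-Sca1-, beside 21.8% of all rows. None of the 5 was called in Kit+Sca1+ against MacHigh, where limma gave an unadjusted p under 0.05 to 1 that was higher (Arsb) and 1 that was lower (Ids). Of all rows, 23.6% were called higher and 22.4% lower there. Ids, iduronate 2-sulfatase, held 18, 24.7, 18.5, 23.6 and 24.7 FPKM in MacHigh and 12.9, 19, 18.3 and 15.7 FPKM in Kit+Sca1+. Kit-Sca1- held 4.48, 5.6, 7.25, 4.62 and 9.06 FPKM and Kit+Sca1- 3.34, 2.72, 3.28, 3.91 and 5.65 FPKM. MacHigh and Kit+Sca1+ overlapped, as did Kit-Sca1- and Kit+Sca1-, with a gap between the pairs. Ids was lower than in MacHigh by a log2 difference of -2.28 ± 0.166 (SE; adjusted p = 7.74e-11) in Kit+Sca1- and of -1.70 ± 0.166 (SE; adjusted p = 6.25e-08) in Kit-Sca1-.

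Sgsh, the sulfamidase of heparan sulfate, showed the same pairing of groups. It held 17.1, 15.2, 13.2, 17.7 and 18.1 FPKM in MacHigh and 14.9, 17.3, 14.8 and 14.4 FPKM in Kit+Sca1+. It held 7.23, 7.76, 7.46, 4.89 and 8.22 FPKM in Kit-Sca1- and 9.97, 6.17, 5.26, 6.71 and 7.39 FPKM in Kit+Sca1-. The difference was -0.08 ± 0.139 (SE; adjusted p = 0.683) between the first pair and -0.01 ± 0.131 (SE; adjusted p = 0.951) between the second, while Kit+Sca1+ was above Kit+Sca1- by 1.03 ± 0.139 (SE; adjusted p = 1.44e-06). Arsb, arylsulfatase B, which acts on dermatan and chondroitin sulfate, was the exception of its class in Kit+Sca1-. It held 145, 152, 171, 129.8 and 145 FPKM in Kit+Sca1- and 79.5, 139.98, 186 and 181 FPKM in Kit+Sca1+. It held 75.5, 114, 102, 78 and 129.99 FPKM in MacHigh and 43.6, 56, 64, 58.1 and 74.4 FPKM in Kit-Sca1-, whose libraries lay below all others of the sorted groups. Arsb was higher in Kit+Sca1- than in MacHigh by 0.59 ± 0.203 (SE; adjusted p = 0.0146) and than in Kit-Sca1- by 1.33 ± 0.203 (SE; adjusted p = 1.2e-05). In Kit+Sca1+ against MacHigh the difference was 0.51 ± 0.216 (SE; adjusted p = 0.0592), and its adjusted p was 0.00247 without Kit+Sca1+ replicate 1, 0.0312 without MacHigh replicate 5 and 0.0491 without unsorted replicate 4. For unsorted cells against MacHigh it was 0.326, and 0.0317 with the prefix block.

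Naglu, which removes N-acetylglucosamine from heparan sulfate, held 12.4 to 18.4 FPKM in MacHigh and 7.2 to 10.1 FPKM in Kit+Sca1- (-0.74 ± 0.136 (SE; adjusted p = 5.9e-05)). Idua, alpha-L-iduronidase, held 10.9 to 16.1 FPKM in MacHigh and 6.74 to 9.77 FPKM in Kit-Sca1- (-0.64 ± 0.111 (SE; adjusted p = 6.29e-05)). Its difference in Kit+Sca1- (-0.30 ± 0.111 (SE; adjusted p = 0.0216)) had an adjusted p of 0.0772 without MacHigh replicate 2 and of 0.0587 without MacHigh replicate 5.

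Libraries of Kit+Sca1+ differed among themselves along 2 sets of genes. Replicate 1 was the lowest of the 4 for 21 of the 40 genes, among them Ppt1, Psap, Gm2a, Arsb and Man2b1. It also had the lowest FPKM summed over all rows (469806, others 535878 to 603735). As a share of that sum, the 39 genes without Psap made up 0.885% in replicate 1 and 0.841% in replicate 3. Replicate 3 was the lowest for 15 genes, among them Lgmn, Ctsb, Ctsd, Ctsl and Lamp1. Summed dendritic cell markers were 385 FPKM in replicate 1 and 625 to 737 FPKM in the others, and summed red pulp macrophage markers were 840.3 FPKM in replicate 3 and 1255 to 2130 FPKM in the others. The part of such cells in the levels of the lysosomal genes was not tested.

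Other genes of the lysosome were read from lists of the same kind. Of 18 other hydrolases tested, 13 were lower than in MacHigh in Kit-Sca1- and 1 was higher, 13 were lower and 2 higher in Kit+Sca1-, and 6 were lower and 5 higher in Kit+Sca1+, to be read against the shares of all rows given above for the same comparisons. Acp5, tartrate-resistant acid phosphatase, was lower in Kit-Sca1- (7.76 to 12 FPKM) than in MacHigh (33.8 to 56.9 FPKM; -2.16 ± 0.189 (SE; adjusted p = 1.65e-08)). Naaa, an acid amidase of N-acylethanolamines, was higher in Kit+Sca1+ (541 to 1137 FPKM) than in MacHigh (195 to 389 FPKM; 1.75 ± 0.381 (SE; adjusted p = 0.00068)), as was Fuca1 (0.63 ± 0.142 (SE; adjusted p = 0.000931)). Galns was the hydrolase that rose in Kit+Sca1- and fell in Kit+Sca1+ against MacHigh, at log2 differences of 0.82 (adjusted p = 5.5e-06) and -0.61 (adjusted p = 0.000622).

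Of 17 other membrane proteins tested, 13 fell below MacHigh among Kit-Sca1- libraries, 12 among Kit+Sca1- and 14 among Kit+Sca1+ libraries. Those called higher were 0, 1 and 1. Among all rows, 26.2%, 30.1% and 22.4% were lower and 24.5%, 32.6% and 23.6% higher. Slc11a1, the metal transporter NRAMP1 of phagosomes, held 74.9 to 109 FPKM in MacHigh and 1.2 to 4.14 FPKM in Kit+Sca1- (-4.84 ± 0.215 (SE; adjusted p = 6.92e-14)). Slc29a3, a nucleoside transporter, held 32.3 to 68 FPKM in MacHigh and 6.73 to 9.5 FPKM in Kit+Sca1- (-2.42 ± 0.157 (SE; adjusted p = 1.1e-11)). Laptm4b went against the list in both Kit+ groups, and in Kit+Sca1+ held 5.81 to 9.46 FPKM beside 1.17 to 1.7 FPKM in MacHigh (1.84 ± 0.15 (SE; adjusted p = 1.55e-09)).

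Of 15 V-ATPase genes tested, Kit+Sca1+ was below MacHigh for 10, with none higher (0 also at an unadjusted limma p under 0.05). It was below Kit+Sca1- for 8, with 1 higher. Among all rows, 22.4% were lower and 23.6% higher in the first comparison, and 28.5% and 26.6% in the second. Atp6v1a, the catalytic subunit, held 31 to 40.4 FPKM in Kit+Sca1+ and 68.6 to 81.1 FPKM in MacHigh (-1.04 ± 0.104 (SE; adjusted p = 3.9e-08)). Atp6v1b2 held 72.2 to 99.2 and 174 to 196 FPKM (-1.12 ± 0.0987 (SE; adjusted p = 4.9e-09)). Atp6ap2, an accessory subunit, was higher in Kit+Sca1- than in MacHigh (144 to 180.1 beside 93.4 to 98 FPKM; 0.73 ± 0.0907 (SE; adjusted p = 3.38e-07)).

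Of 12 genes of the mannose 6-phosphate route, 4 were higher and 4 lower in Kit+Sca1- than in MacHigh, and 2 were higher and 3 lower in Kit+Sca1+. These shares were near or below those of all rows in the first comparison (32.6% higher and 30.1% lower) and in the second (23.6% and 22.4%). Gga2, an adaptor that sorts the receptors, held 15.9 to 26.9 FPKM in Kit+Sca1- and 4.67 to 6.08 FPKM in MacHigh (1.75 ± 0.111 (SE; adjusted p = 8.17e-12)), and Sort1, a sorting receptor, held 89.1 to 142 and 26.4 to 55 FPKM (1.57 ± 0.259 (SE; adjusted p = 1.5e-05)). Sumf1, which activates all sulfatases, was lower in Kit+Sca1- (16 to 21.7 FPKM) than in MacHigh (33.3 to 42 FPKM; -0.89 ± 0.0828 (SE; adjusted p = 3.53e-09)). Of 14 relatives of TFEB and genes of mTORC1 at the lysosome, Kit+Sca1+ was below MacHigh for 9. None was higher there (0 also at an unadjusted limma p under 0.05). For Kit+Sca1- the counts against MacHigh were 6 lower and 4 higher. Beside these stand 22.4% of all rows called lower and 23.6% higher for Kit+Sca1+, and 30.1% and 32.6% for Kit+Sca1-. Mitf was lower in Kit+Sca1- than in MacHigh (-1.63 ± 0.137 (SE; adjusted p = 7.43e-10)) and Tfec, of the same family, was higher (44.5 to 93.7 beside 15 to 26.2 FPKM; 1.62 ± 0.233 (SE; adjusted p = 2.6e-06)). Rraga, the RagA GTPase, was lower in Kit+Sca1- (-1.10 ± 0.0994 (SE; adjusted p = 2.29e-09)).

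Cystatins block cysteine cathepsins. Of 3 tested, 1 rose and 2 fell relative to MacHigh in both Sca1- groups, and 2 rose and 1 fell in Kit+Sca1+. In these comparisons 22.4% to 32.6% of all rows were called in each direction. Cstb, the intracellular cystatin B, was lower in all 3 groups, at 152 to 247 FPKM in MacHigh and 57.4 to 101 FPKM in Kit+Sca1- (-1.40 ± 0.142 (SE; adjusted p = 1.49e-08)). Cst3, the secreted cystatin C, held 4793 to 8981 FPKM in Kit+Sca1+ and 2382 to 3837 FPKM in MacHigh (1.36 ± 0.27 (SE; adjusted p = 0.000274)), and was lower than in MacHigh in Kit-Sca1- (-1.45 ± 0.254 (SE; adjusted p = 7e-05)) and Kit+Sca1- (-1.77 ± 0.254 (SE; adjusted p = 2.54e-06)). Cst7, cystatin F, which is held inside the endolysosome and inhibits cathepsin C, held 125 to 289 FPKM in Kit+Sca1- and 19.7 to 26.5 FPKM in MacHigh (3.05 ± 0.253 (SE; adjusted p = 6.06e-10)). Kit+Sca1- was the group with the highest mean of Cst7 and the lowest of Ctsc.

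**Figure D4:**
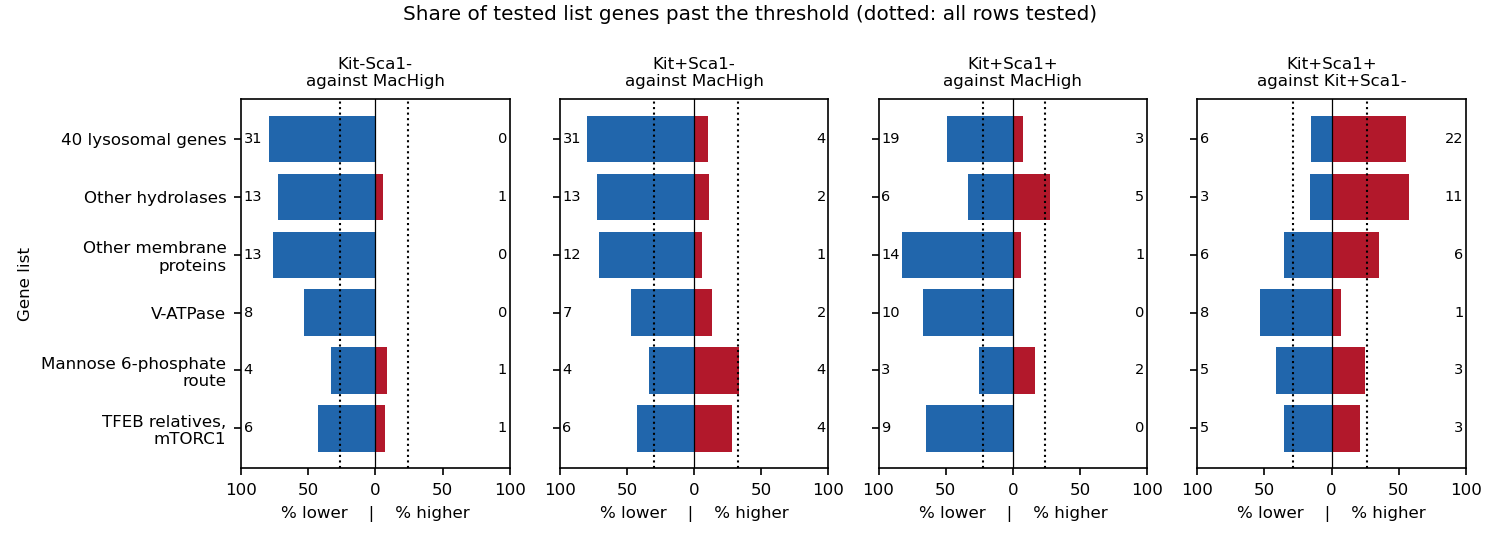
Percentage of tested genes of each list called higher (red, right) or lower (blue, left) in 4 comparisons, with the number of genes beside each bar and dotted lines for the percentages among all rows tested. The 40 lysosomal genes have 31 lower calls in Kit-Sca1- and as many in Kit+Sca1-, each against MacHigh, and the V-ATPase has 10 lower and none higher in Kit+Sca1+.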

How the data were processed

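RNA from 24 libraries of 5 groups was sequenced, and the authors deposited 1 table of FPKM with 23361 rows. The submitters' processing notes list TopHat2 2.0.4, Cuffdiff and the build mm10, with no roles; the annotation and any scaling between libraries are not given in the sources used here, and the unit is taken from the table's name and values. All columns were matched to samples by sample name (0 unmatched).

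The genes and lists were chosen with earlier results of these data known. All 40 genes may be named; libraries are listed for at least the 2 genes of each class with the largest F, and from other lists the 2 with the largest F and those going against the list are named; some genes that this rule covers are not reported here. Values of 0.001 FPKM throughout a group, where another group held at least 5 FPKM in all libraries, were treated as missing (38 rows), as were 25 single values of this kind. Most of the 38 rows failed in Kit+Sca1-, among them Mpo, Elane, S100a8 and S100a9, while Lyz2 and Psap failed in MacHigh. Summed FPKM were taken with these values at 0.001. Linear models of the 5 groups on log2(FPKM + 1) were fitted to 11599 rows with limma 3.58.1 (R 4.3.3). They used a variance trend and Benjamini-Hochberg adjustment over all rows of a comparison. The fit was tried on simulated libraries drawn independently, so that trial does not cover libraries that deviate together by prefix. The prefixes of sample names (6 in all) recur across groups. Deviations from group means correlated above 0.1 for every same-prefix pair in 5 of 7 comparisons (34 of 38 pairs over all groups), and values with the prefix as a block are given there where they change a call. Alternatives covered the filter, pseudocount, scaling, the 0.001 values, the samples fitted, both blocks and each library left out. Promoters are from RefSeq (GRCm38.p6), and figures were drawn with matplotlib.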

Additional observations from a re-analysis of the deposited data

Results flagged for a closer look

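In 12 of 199 gene and group combinations 1 library stood apart from the rest of its group by Dixon's criterion, where chance gives about 1 in 20. Of these, 4 were replicate 1 of Kit+Sca1+, low in each case: Psap at 2547 FPKM (others 4205 to 4428), Man2b1 at 199.95 FPKM (others 276 to 291), Idua at 8.78 FPKM (others 12 to 12.1) and Arsa at 7.30 FPKM (others 10.4 to 10.8). Replicate 3 of Kit+Sca1+ was low for Lamp1 at 175 FPKM (others 220.5 to 227) and for Glb1 at 23 FPKM (others 29.2 to 29.6).

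Replicate 3 of Kit+Sca1- was high for Ctsa at 73.9 FPKM (others 52.9 to 58.7) and for Gusb at 159.6 FPKM (others 122 to 130.3), and replicate 5 of Kit+Sca1- was high for Psap at 810.3 FPKM (others 288 to 388). Among unsorted libraries, replicate 4 was low for Lamp2 at 119.5 FPKM (others 149 to 152), and replicate 5 was high for Gm2a at 153 FPKM (others 126 to 133) and Tfeb at 27 FPKM (others 22.1 to 23.3).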

How the results depend on the processing

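Of the 141 gene-level results taken as named, 138 kept their direction and their side of the threshold under all 33 alternatives run. For Lgmn, Tpp1 and Mcoln1 the report gives the values that differed, but for the blocked value of Lgmn given below. The 141 do not hold every gene-level result of the report. Some of the others crossed the threshold, among them results of Galc, Idua, Smpd1, Arsb, Tfeb and Hexa, as given with each gene. No call of any of the 40 genes changed sign. Scaling mattered most: rescaling libraries to the same FPKM sum moved the median log2 difference of all rows against MacHigh from 0.03 to 0.32 in Kit+Sca1- and from -0.02 to 0.15 in unsorted cells, and 30 of the 201 calls were lost and 7 gained. The sums used for this rescaling held failed estimates at 0.001 FPKM, most of them in Kit+Sca1-. Relative to the median of all rows, the genes lay 0.68 (Kit-Sca1-), 1.08 (Kit+Sca1-) and 0.46 (Kit+Sca1+) lower on the log2 scale.

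Genes higher in Kit+Sca1+ than in MacHigh, 3 as reported, were 5 with rescaled libraries, 7 under quantile normalization and 5 with the replicate number of the titles as a block. Genes lower in unsorted cells than in MacHigh, 30 as reported, were 19 with rescaled libraries. With values of 0.001 kept as deposited, Psap entered: genes higher than in MacHigh were 1 in Kit-Sca1- and 2 in unsorted cells. Over the libraries left out in turn, genes higher in Kit+Sca1+ than in MacHigh ranged from 2 to 6, and genes higher in Kit+Sca1- than in Kit-Sca1- from 5 to 9. CACGTG was found in 12 genes also when only the 250 bases before the start were read. The cause of these changes was not tested.

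With the replicate block by sample name prefix, 26 calls were gained and none lost. In Kit+Sca1- against MacHigh 3 of 5 same-prefix pairs correlated above 0.1 (lowest -0.05). In Kit+Sca1+ against MacHigh 2 of 3 did (lowest 0.09). The block gave 4 higher and 32 lower in the first comparison and 4 higher and 26 lower in the second. Without it 31 and 19 were lower. Lgmn in Kit+Sca1+ had a limma adjusted p of 0.0374 with the block, beside 0.0626. By title number, every pair correlated above 0.1 in no comparison but unsorted against MacHigh, and that block gained 12 calls. Depth is unknown, and groups of 4 or 5 libraries limit the precision.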
